A study of Mus musculus with 10 samples.

Results

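The genes described here are 9 genes of fatty acid synthesis and desaturation: the stearoyl-CoA desaturase genes Scd1, Scd2, Scd3 and Scd4, the synthesis genes Acly, Acaca and Fasn, the elongase gene Elovl6, and Srebf1, which encodes the transcription factor SREBP-1. They were taken by name, and all 9 were found among the 19938 genes that could be named on the arrays. For a gene with several probe sets the brightest was used, chosen by its mean level over all 10 arrays, which mattered for 1 of the 9, Acaca. The genes themselves were taken up with their KD minus WT values already known, so those values are a description and support nothing. The arrays, of Affymetrix make, measured transcripts in mice with a knockdown (KD) of VAChT, the vesicular acetylcholine transporter encoded by Slc18a3, and in wild-type (WT) mice. There were 3 KD and 3 WT arrays of ventricular cardiomyocytes, the muscle cells of the ventricles, and 2 KD and 2 WT arrays of whole hearts. All mice were male, of strain C57BL/6, 3 months old and untreated, and RNA of 2 samples was pooled for each array. The series title calls the animals of the whole hearts VAChT KDHOM; the construction of the KD allele is not given in the sources used here. Nothing says that the arrays of a group came from separate mice beyond the pooling, so p-values cover only array-to-array spread, part of which may be technical.

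Cells make fatty acids from citrate. Acly, ATP citrate lyase, splits citrate into cytosolic acetyl-CoA, Acaca, acetyl-CoA carboxylase alpha, turns it into malonyl-CoA, and Fasn, fatty acid synthase, builds palmitate. Elovl6 lengthens palmitate to stearate, and the desaturases put the first double bond into these saturated chains. SREBP-1 binds the promoters of these genes in liver and fat. The adult heart mainly burns fatty acids taken from blood and makes few itself, and malonyl-CoA also restrains the entry of fatty acids into mitochondria. Of the desaturases, mouse Scd1 is best known from liver and fat, Scd2 from brain and many other tissues, Scd3 from skin and Scd4 from heart.

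Values are log2 intensities, so a difference of 1 is a 2-fold difference in signal. The array medians over named genes lay between 6.19 and 6.27 in cardiomyocytes and between 7.54 and 7.59 in hearts, so KD was compared with WT within each kind of sample. All 10 cardiomyocyte markers were above the array median on every array. The 10 endothelial markers were above it on every cardiomyocyte array too. One library stood apart: in KD heart replicate 1 the mean of 13 thymocyte markers was 9.41, against 6.68 in KD replicate 2 and 6.49 and 6.76 in the WT hearts. Slc18a3, the targeted gene, differed by 0.16 (SE 0.16) in KD cardiomyocytes and 0.05 (SE 0.19) in KD hearts, so no decrease was seen. The part of the gene that its probes cover is not given, so this checks nothing about the genotype. In bulk RNA, fewer cells of a type and less RNA per cell cannot be told apart.

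Scd4, the desaturase gene known from mouse heart, was lower on all KD arrays than on all WT arrays, in cardiomyocytes and in hearts. Its level was near the array median over named genes in hearts, at -0.66 and -0.6 from it in KD and -0.09 and 0.13 in WT. It was above the median on 5 of 6 cardiomyocyte arrays, with KD replicate 2 at -0.25. In cardiomyocytes Scd4 was 6.95, 6.02 and 6.69 on the KD arrays, against 7.15, 6.97 and 7.57 on the WT arrays. The groups did not overlap, but the highest KD array lay just under the lowest WT array. The means were 6.55 ± 0.48 in KD and 7.23 ± 0.31 in WT (± SD, 3 arrays a group), and KD minus WT was -0.68 (SE 0.21, 95% confidence interval -1.13 to -0.23) or 0.624-fold, with an adjusted p of 1 from limma over all genes (unadjusted 0.00594). Without KD replicate 2, the lowest array, the difference was -0.41. In hearts Scd4 was 6.9 and 6.98 in KD, against 7.44 and 7.67 in WT, with no overlap. The means were 6.94 ± 0.06 in KD and 7.56 ± 0.16 in WT (± SD, 2 arrays a group), and KD minus WT was -0.61 (SE 0.25, interval -1.16 to -0.07) or 0.653-fold, and the limma adjusted p was 0.95 (unadjusted 0.0308). Without KD heart replicate 1 it was -0.57. The effects in cardiomyocytes and hearts differed by -0.07 (SE 0.33, interval -0.77 to 0.64; limma adjusted p 0.999).

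These Scd4 values did not pass the threshold of an adjusted p under 0.05, which 0 of 19938 genes (0%) passed in either kind of sample. The lowest adjusted p of any gene was 1 in cardiomyocytes and 0.713 in hearts. At an unadjusted p under 0.05 limma gave 419 genes (2.1%) in cardiomyocytes and 982 (4.93%) in hearts, Scd4 being the only one of the 9 genes in each, and 3.49% of genes for the difference between the effects, with none of the 9. All KD arrays lay below all WT arrays in 3.21% of genes in cardiomyocytes and 15.4% in hearts, and in both in 79 genes (0.396%), Scd4 among them. Scd4 was taken up with its low value in KD cardiomyocytes already known. In either direction, 1 of the 9 genes did not overlap in cardiomyocytes, where 6.21% of all genes did not, and 1 of 9 in hearts, where 29.6% did not. Scd4 has close paralogs in Scd1, Scd2 and Scd3, next to it on chromosome 19, and how far the probes of one bind RNA of another was not tested.

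**Figure D1:**
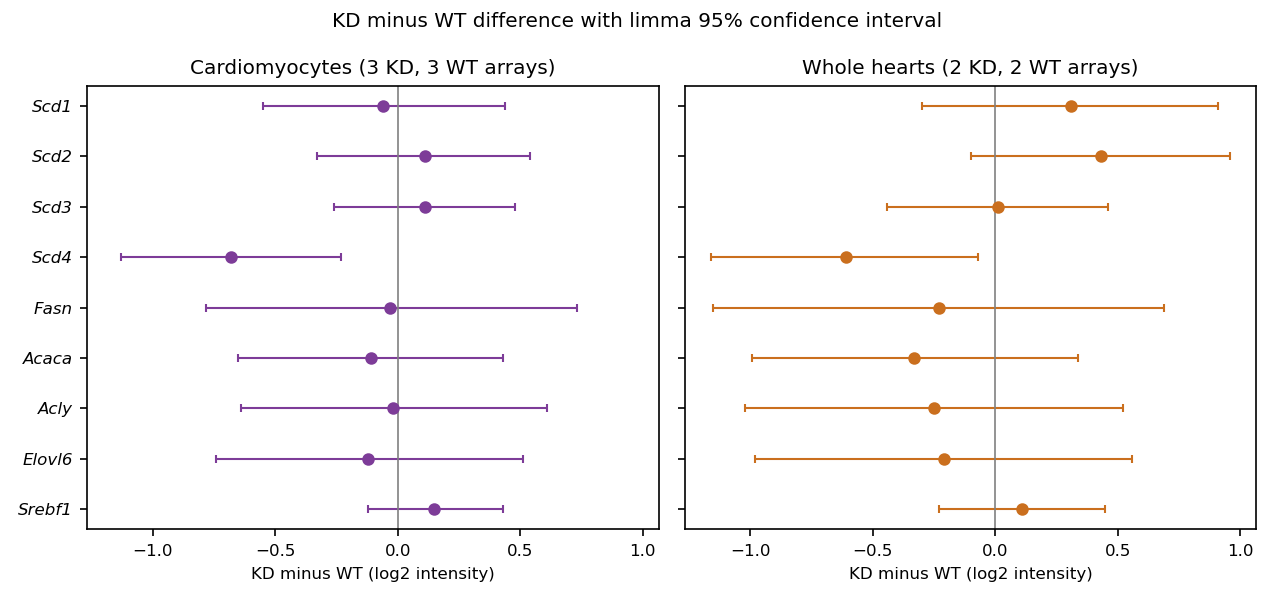
KD minus WT difference in log2 intensity (horizontal axis) of each of the 9 genes in cardiomyocytes (left) and whole hearts (right); points are limma estimates and bars 95% confidence intervals. Scd4 is at -0.68 in cardiomyocytes and -0.61 in hearts with intervals below 0, and every other interval spans 0.

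The genes of fatty acid synthesis itself overlapped between KD and WT cardiomyocytes, with differences between -0.12 and -0.02 for Fasn, Acly, Acaca and Elovl6. Fasn was 7.65, 7.57 and 7.5 on the KD arrays, against 7.64, 7.55 and 7.62 on the WT arrays. The 6 arrays spanned 0.15, where the median span over all genes was 0.34, and the genotypes overlapped. The means were 7.57 ± 0.08 in KD and 7.6 ± 0.05 in WT (± SD, 3 arrays a group), so KD minus WT was -0.03. The fit over all 10 arrays gave this difference an interval of -0.78 to 0.73, because it shares its estimate of the spread with the hearts, where Fasn varied widely. From the cardiomyocyte arrays alone the interval was -0.24 to 0.19.

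Acly, which feeds this synthesis, was 6.87, 6.94 and 6.96 on the KD cardiomyocyte arrays, against 6.82, 7.12 and 6.87 on the WT arrays. Its difference of -0.02 had an interval of -0.26 to 0.23 from the cardiomyocyte arrays alone. Acaca was 6.54, 6.38 and 6.33 in KD, against 6.57, 6.5 and 6.51 in WT. That is a difference of -0.11 (interval -0.34 to 0.11 from the cardiomyocyte arrays alone), and the top KD array lay inside the WT range. Its dimmer second probe set, with a mean of 5.38 over the 10 arrays against 7.17 for the one used, gave -0.29. Elovl6 was 4.98, 5.52 and 5.25 in KD, against 5.51, 5.29 and 5.3 in WT, below the median of its array on all 6, with a difference of -0.12 (interval -0.41 to 0.18 from the cardiomyocyte arrays alone). Srebf1 was 8.07, 7.62 and 7.72 in KD, against 7.59, 7.78 and 7.58 in WT. The difference of 0.15 rested on KD replicate 1, and it was 0.02 without that array.

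The other desaturase genes overlapped between KD and WT cardiomyocytes as well. Scd1 was 6.17, 6.31 and 6.17 in KD, against 6.49, 6.32 and 6.01 in WT, a difference of -0.06 (interval -0.34 to 0.22 from the cardiomyocyte arrays alone). Scd2 was 7.25, 6.77 and 6.87 in KD, against 6.94, 6.83 and 6.8 in WT, a difference of 0.11 (interval -0.18 to 0.39). Scd3 was 5.65, 5.5 and 5.4 in KD, against 5.43, 5.22 and 5.56 in WT, a difference of 0.11, and it lay below the array median on all 6 arrays. Of the 9 genes 3 were higher and 6 lower in KD cardiomyocytes, with a median difference of -0.03, against 0 over all genes.

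**Figure D2:**
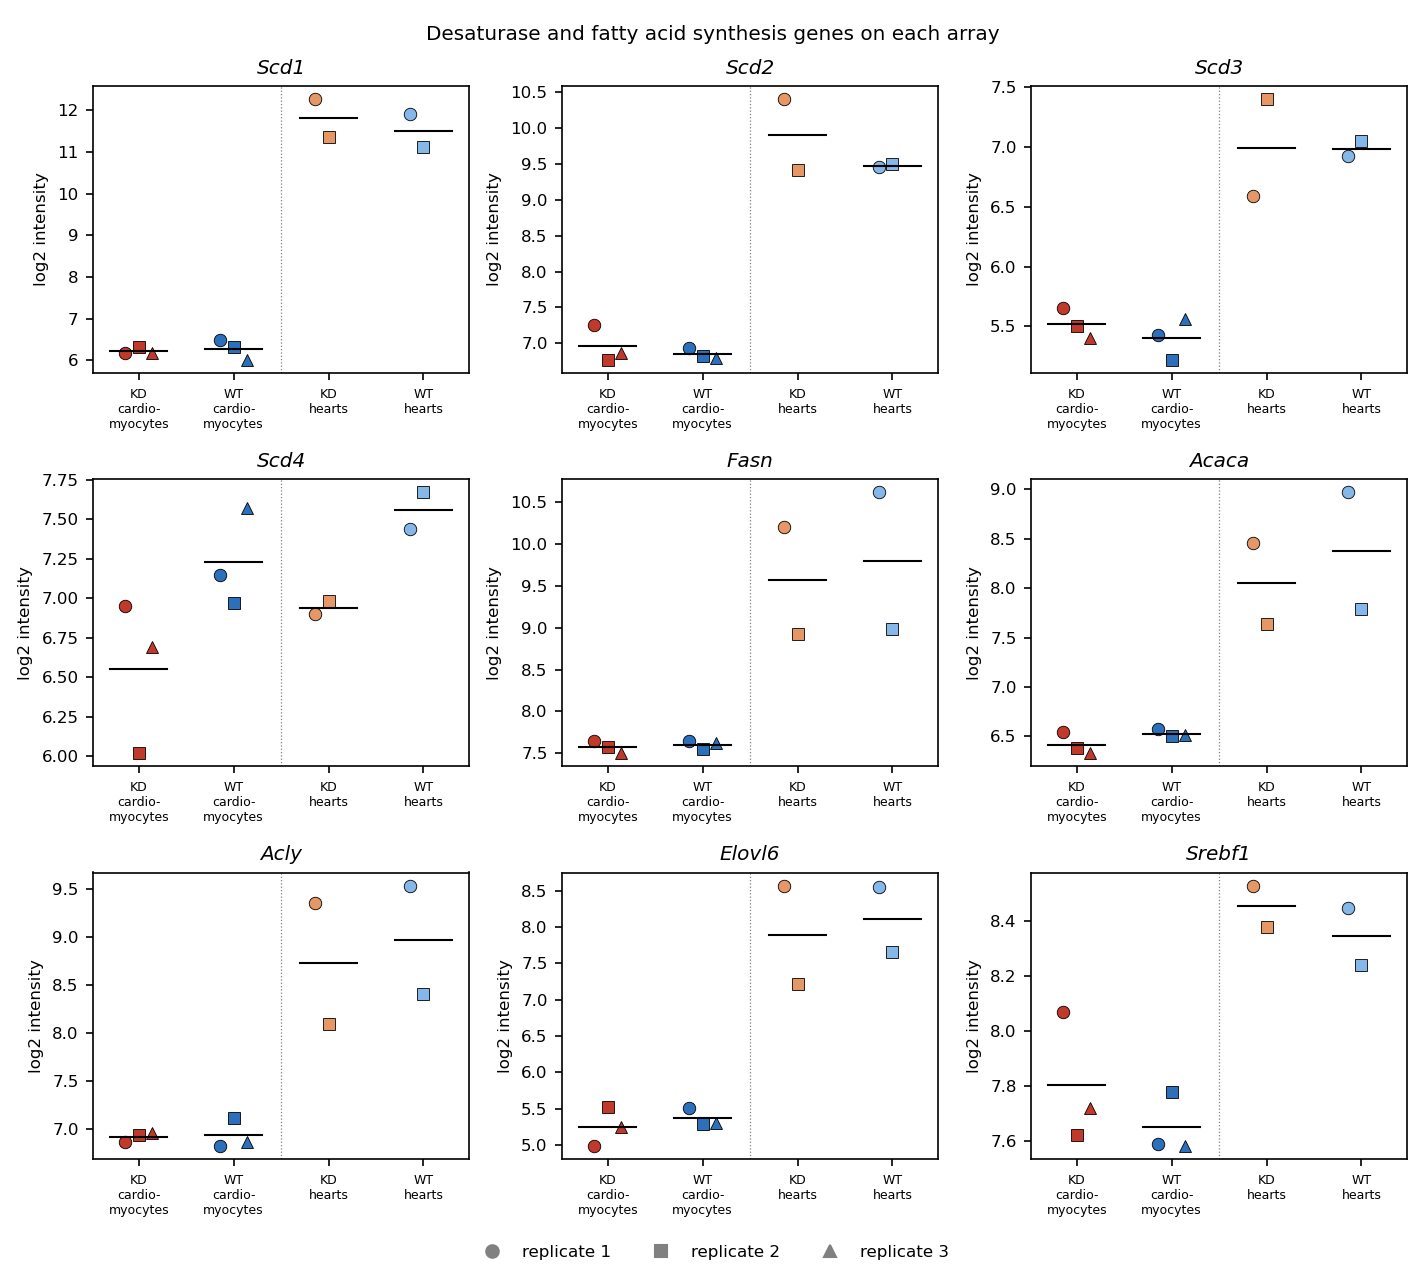
Log2 intensity (vertical axes, own scale for each gene) of the 9 genes on every array, KD left of WT for cardiomyocytes and then for hearts; symbols give the replicate number and bars the group mean. In hearts the replicates numbered 1 lie above those numbered 2 for Fasn, Acaca, Acly, Elovl6 and Scd1 in both genotypes, and Scd4 is lower in KD on every array.

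In whole hearts the synthesis genes varied more between hearts of one genotype than between genotypes. Fasn was 10.21 and 8.93 in KD replicates 1 and 2, against 10.62 and 8.98 in WT replicates 1 and 2. Acly was 9.36 and 8.1 in KD, against 9.54 and 8.41 in WT. Acaca was 8.46 and 7.64 in KD, against 8.97 and 7.79 in WT. In each of these genes the array numbered 1 was the higher one in both genotypes. Elovl6 was 8.57 and 7.22 in KD, against 8.55 and 7.66 in WT. Scd1 was 12.27 and 11.36 in KD, against 11.9 and 11.12 in WT. All 5 genes thus had a high and a low heart in each genotype, and KD and WT overlapped.

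The gap between the replicates of Fasn was 1.28 in KD hearts and 1.64 in WT hearts, and that of Acly 1.25 in KD and 1.13 in WT. For Elovl6 it was 1.35 in KD and 0.89 in WT, for Acaca 0.82 in KD and 1.19 in WT, and for Scd1 0.91 in KD and 0.78 in WT. Over all genes the median absolute gap was 0.18 in KD and 0.11 in WT. Replicate 1 was above replicate 2 by over 1 in 242 genes (1.21%) in KD hearts and in 9 genes (0.0451%) in WT hearts. Only 4 of 19938 genes (0.0201%) had such a gap in each genotype. They were Fasn, Acly, Ogdhl, a gene of the oxoglutarate dehydrogenase family, and Snord73b, a small nucleolar RNA gene. The limit of 1, Ogdhl and Snord73b were picked after the values were seen. The second Acaca probe set split in the same way, at 6.85 and 5.91 in KD and 7.51 and 5.95 in WT.

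**Figure D3:**
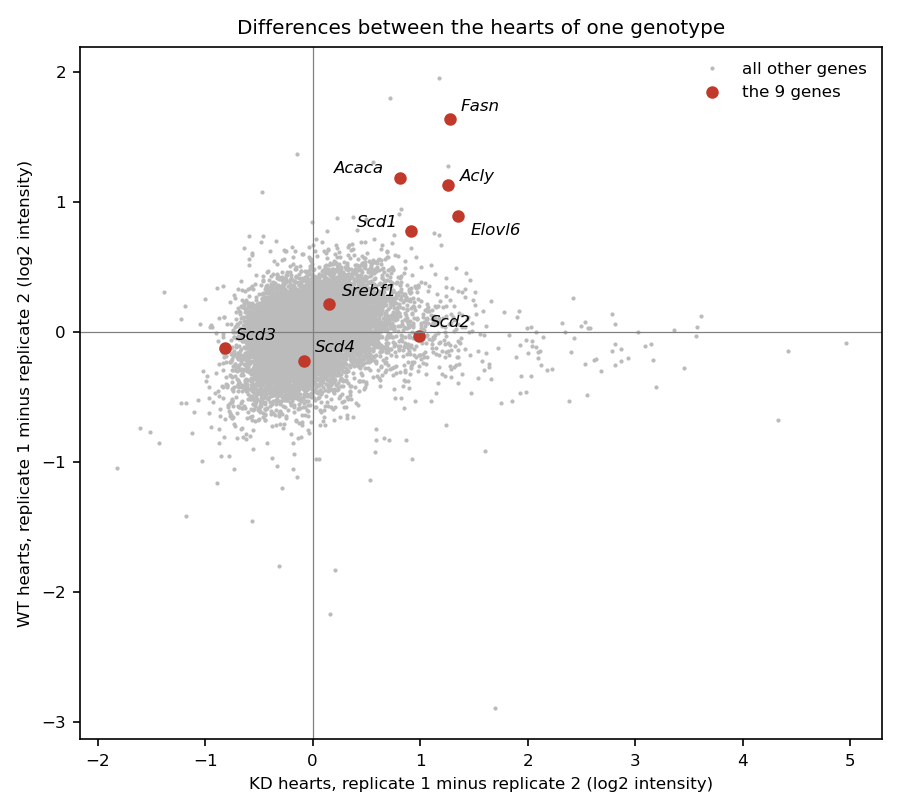
Replicate 1 minus replicate 2 in KD hearts (horizontal axis) and in WT hearts (vertical axis), in log2 intensity, for all 19938 genes (grey) and the 9 genes (red). Fasn, Acly, Acaca, Elovl6 and Scd1 lie at the upper right, from 0.82 to 1.35 in KD and 0.78 to 1.64 in WT, while Srebf1 and Scd4 lie in the bulk of genes and Scd2 and Scd3 are off it in KD alone.

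As a list the 15 adipocyte markers did not split this way, and 0 of them had a gap over 1 in either genotype. Their mean was 8.58 and 8.43 in KD hearts 1 and 2, against 8.74 and 8.76 in WT hearts 1 and 2, with a median gap of 0.11 in KD and -0.01 in WT. Some members did run with Fasn: Car3, carbonic anhydrase of fat and muscle, was 11.09 and 10.51 in KD hearts 1 and 2, against 11.68 and 10.97 in WT hearts 1 and 2, and Adipoq was 8.36 and 8.03 in KD, against 8.69 and 8.32 in WT. Ucp1 ran opposite ways, at 8.48 and 7.56 in KD and 8.03 and 9 in WT. What part adipocytes had in the split was not tested. The 13 thymocyte markers had a median gap of 2.68 in KD hearts and -0.25 in WT hearts, so they were high in KD replicate 1 and not in WT replicate 1. Fibroblast markers had a median gap of 0.06 in KD and 0.11 in WT, endothelial markers of 0.1 in KD and 0.15 in WT, macrophage markers of -0.16 in KD and -0.27 in WT, and cardiomyocyte markers of -0.1 in KD and 0.1 in WT. Srebf1 had a narrow range over the 4 hearts, 0.29, against 1.69 for Fasn. It was 8.53 and 8.38 in KD and 8.45 and 8.24 in WT, a gap of 0.15 in KD and 0.21 in WT.

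Since Fasn, Acly, Acaca and Elovl6 split together, sequence windows at their annotated start sites are shown. The windows run from 250 bases before to 50 bases after a RefSeq start site in build GRCm38.p6, and 7 of the 9 genes had such a window. Scd1, which split with these genes, and Scd2 had none, so their promoters were not searched. Capitals mark CCAAT on either strand (the reverse reads ATTGG), a motif bound by the factor NF-Y, which works with SREBP-1 in liver.
Fasn (chr11:120824498-120824797, minus strand): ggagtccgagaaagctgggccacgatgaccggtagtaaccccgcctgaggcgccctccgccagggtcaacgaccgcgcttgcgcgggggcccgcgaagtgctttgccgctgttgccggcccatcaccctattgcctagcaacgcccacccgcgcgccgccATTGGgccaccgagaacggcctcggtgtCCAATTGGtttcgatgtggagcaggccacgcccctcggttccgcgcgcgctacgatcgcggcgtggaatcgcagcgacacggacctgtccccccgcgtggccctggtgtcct
Acly (chr11:100527951-100528250, minus strand): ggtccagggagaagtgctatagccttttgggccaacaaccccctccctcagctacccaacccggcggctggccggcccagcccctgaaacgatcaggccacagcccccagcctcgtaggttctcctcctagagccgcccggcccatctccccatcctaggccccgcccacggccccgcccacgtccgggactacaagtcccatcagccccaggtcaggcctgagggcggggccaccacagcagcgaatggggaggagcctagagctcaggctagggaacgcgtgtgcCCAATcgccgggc
Acaca (chr11:84195188-84195487, plus strand): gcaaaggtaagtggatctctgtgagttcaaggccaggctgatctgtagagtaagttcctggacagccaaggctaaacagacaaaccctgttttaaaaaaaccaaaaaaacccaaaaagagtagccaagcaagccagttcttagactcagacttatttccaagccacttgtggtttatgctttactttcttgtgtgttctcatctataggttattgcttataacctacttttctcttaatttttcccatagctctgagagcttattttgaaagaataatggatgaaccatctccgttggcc
Elovl6 (chr3:129532136-129532435, plus strand): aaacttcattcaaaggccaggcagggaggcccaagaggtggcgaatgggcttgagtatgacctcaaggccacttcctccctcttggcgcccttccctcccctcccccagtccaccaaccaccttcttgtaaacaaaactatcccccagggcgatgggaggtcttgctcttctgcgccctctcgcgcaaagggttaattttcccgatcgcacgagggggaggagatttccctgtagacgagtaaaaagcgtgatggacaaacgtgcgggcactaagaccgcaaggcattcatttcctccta
The Fasn window held CCAAT 3 times, 2 of them overlapping on opposite strands, and the Acly window held it once, past the start site. The Acaca and Elovl6 windows held none. Of all 32851 promoter windows 37.4% held CCAAT, and of the 9 windows of these genes 4 did, the others being 2 of the 3 of Srebf1. Neither the E-box CACGTG, found in 7.15% of all windows, nor the sterol element core TCACNCCAC, found in 1.24%, was in any of the 9 windows on either strand. A match is a description of these letters and not a bound site. Start sites outside these windows were not searched. A window without a match, as for Acaca, thus says nothing about other promoters of the gene.

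KD minus WT differences of these genes in hearts were small beside that spread. For Fasn the means were 9.57 ± 0.9 in KD and 9.8 ± 1.16 in WT (± SD, 2 arrays a group), and KD minus WT was -0.23 (SE 0.43, interval -1.15 to 0.69; limma adjusted p 1). It turned to 0.59 without WT replicate 1 and to 0.41 without KD replicate 2, taking the spread of the remaining single heart from the other groups, and it was -0.87 without KD replicate 1. From the heart arrays alone the Fasn interval was wider, at -1.75 to 1.29. The fit over all 10 arrays shares its spread with the cardiomyocytes, where Fasn varied little. Acaca differed by -0.33 (SE 0.31), Acly by -0.25 (SE 0.36) and Elovl6 by -0.21 (SE 0.36), each also turning positive without WT replicate 1 or KD replicate 2. Without KD replicate 1 they were at -0.74, -0.87 and -0.89. Intervals from the heart arrays alone were -1.4 to 0.74 for Acaca, -1.49 to 1 for Acly and -1.4 to 0.98 for Elovl6. Those of Scd4 and Srebf1 were narrower than in the fit over all arrays. Srebf1 differed by 0.11 (SE 0.16, interval -0.23 to 0.45), by 0.03 without KD replicate 1 and by 0 without WT replicate 2, and by 0.21 without WT replicate 1 and 0.18 without KD replicate 2.

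Among the desaturases in hearts, Scd2 had 1 high array. It was 10.4 and 9.41 in KD, against 9.46 and 9.49 in WT, so only KD replicate 1, the heart with the thymocyte signal, stood above the rest. The difference was 0.43 (SE 0.25, interval -0.1 to 0.96; limma adjusted p 1). Without KD replicate 1 it was -0.07. Without KD replicate 2, which leaves the heart with the thymocyte signal as the only KD heart, it was 0.93. Scd3 was 6.59 and 7.4 in KD, against 6.92 and 7.05 in WT, below the array median on all 4 arrays, with KD replicate 1 the lowest and a difference of 0.01. Scd1 differed by 0.31 (SE 0.28, interval -0.3 to 0.91), by -0.15 without KD replicate 1 and by -0.08 without WT replicate 2, and by 0.7 and 0.76 without WT replicate 1 and KD replicate 2. With a heart left out Scd3 ranged from -0.39 to 0.42. From the heart arrays alone the intervals were -0.6 to 1.22 for Scd1, -0.34 to 1.2 for Scd2 and -0.63 to 0.65 for Scd3. What part the thymocyte RNA had in Scd2 and Scd3 was not tested. Of the 9 genes 4 were higher and 5 lower in KD hearts, with a median of -0.21, against 0.008 over all genes. The median was -0.57 without KD replicate 1, -0.5 without WT replicate 2, 0.27 without WT replicate 1 and 0.38 without KD replicate 2, so its direction hung on which hearts were in it.

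For none of the 9 genes did the KD effect pass a test of a difference between cardiomyocytes and hearts. The effect in cardiomyocytes minus that in hearts ran from -0.36 for Scd1 to 0.23 for Acly, with limma adjusted p-values of 0.999 for all 9 genes and 0 of 19938 genes (0%) past the threshold.

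Of the 9 genes Scd1 differed most between isolated cardiomyocytes and whole hearts. Scd1 lay within 0.29 of the median of its array over named genes on all 6 cardiomyocyte arrays, at -0.03 to 0.04 in KD and -0.21 to 0.29 in WT. In hearts it was 4.72 and 3.77 above the median in KD and 4.36 and 3.58 in WT. In WT samples the cardiomyocyte mean of Scd1 minus the heart mean was -5.24 as deposited, -3.85 with each array centred on its median over all probe sets and -4.43 after quantile normalization. The same difference had a median of -1.2, 0.19 and 0 over all genes under these scalings, and at most 0.0502% of genes were as low as Scd1. Cardiomyocytes and hearts were apparently normalized separately and their labelling protocols differ, so no test was made and these values set levels across separate scales.

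Scd2, Elovl6, Fasn, Acly and Acaca were lower in WT cardiomyocytes than in WT hearts under all 3 scalings. With arrays so centred the differences were -1.23 for Scd2, -1.35 for Elovl6, -0.81 for Fasn, -0.65 for Acly and -0.46 for Acaca. Relative to the median over named genes, Fasn in the hearts numbered 2 lay at 1.34 in KD and 1.44 in WT, within its ranges of 1.29 to 1.46 in KD and 1.32 to 1.44 in WT cardiomyocytes. Acly in these hearts lay at 0.52 in KD and 0.87 in WT, against 0.67 to 0.75 in KD and 0.62 to 0.89 in WT cardiomyocytes. Acaca lay at 0.06 in KD and 0.25 in WT, against 0.1 to 0.35 in KD and 0.27 to 0.37 in WT cardiomyocytes. On this scale the lower cardiomyocyte levels of Fasn, Acly and Acaca thus rested mainly on the hearts numbered 1. Scd4 ran the other way once the scale was adjusted, at 1.06 (centred) and 0.85 (quantile) higher in cardiomyocytes, although -0.32 as deposited. Srebf1 was 0.69 (centred) and 0.27 (quantile) higher in cardiomyocytes and -0.7 as deposited. Scd3 differed by -0.19 (centred) and -0.13 (quantile).

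The adipocyte list as a whole was also lower in cardiomyocytes. The mean of the 15 markers lay 0.2 to 0.35 above the array median in cardiomyocytes and 0.84 to 1.22 above it in hearts. Adipoq, the adiponectin gene, was 3.83 to 4.28 in cardiomyocytes, below the array median on all 6 arrays, and 8.03 to 8.69 in hearts, above it on all 4. Ucp1, the brown fat uncoupling protein gene, was 4.34 to 4.58 in cardiomyocytes and 7.56 to 9 in hearts. Cidec, Pck1, Car3 and Cebpa lay on the same sides of the array median as Adipoq, but other markers did not follow. Plin4 was 9.28 to 9.69 in cardiomyocytes and 8.58 to 8.87 in hearts. Pparg was 7.87 to 8.43 in cardiomyocytes and 8.31 to 8.58 in hearts, so it was higher in cardiomyocytes relative to the array medians. Lep and Adig lay below the array median on every array. Relative to the array median, macrophage and fibroblast markers were lower in cardiomyocytes as well, while the endothelial mean overlapped between the 2 kinds of sample. The mean of 10 macrophage markers lay -0.86 to -0.2 from the array median in cardiomyocytes and 1.48 to 1.71 above it in hearts, and that of 10 fibroblast markers 0.31 to 0.94 above it in cardiomyocytes and 2.15 to 2.5 above it in hearts. The endothelial mean lay 2.12 to 2.5 above it in cardiomyocytes and 2.17 to 2.52 above it in hearts. What part any of these cell types had in the Scd1 level was not tested.

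**Figure D4:**
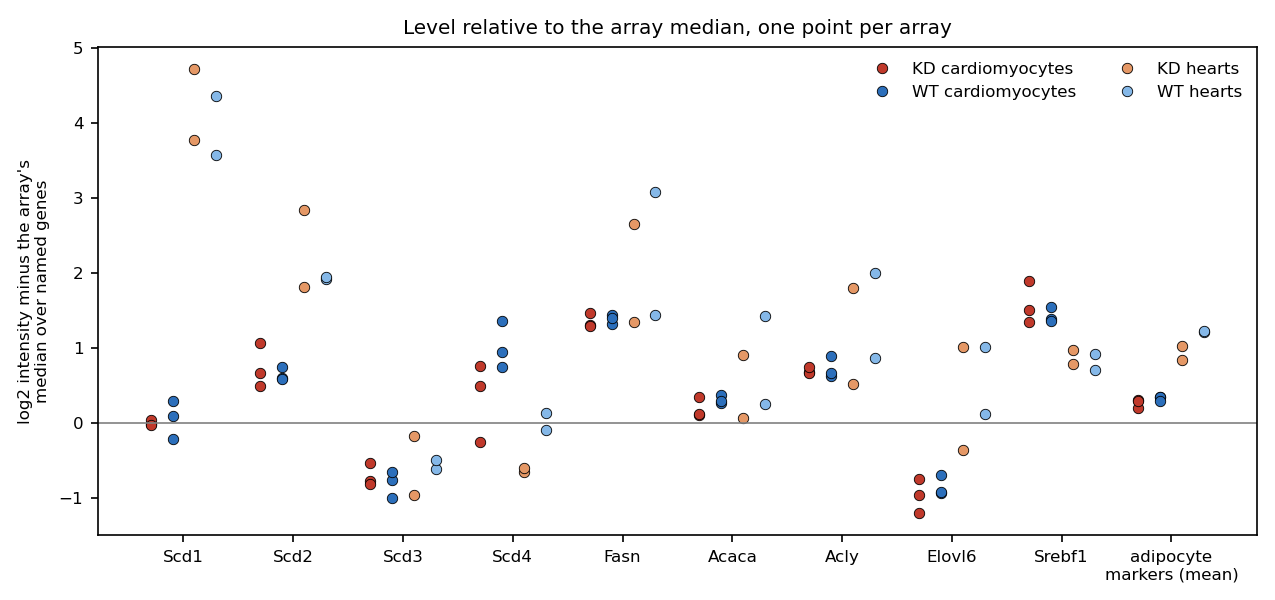
Log2 intensity minus the median of the array over named genes (vertical axis) for the 9 genes and for the mean of the 15 adipocyte markers, a point for each array. Scd1 lies within 0.29 of the median in cardiomyocytes and 3.58 to 4.72 above it in hearts, while Scd4 and Srebf1 are relatively higher in cardiomyocytes.

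The genes around this pathway showed no KD change that passed the test: of the 83 measured genes of 5 lists, 0 passed in either kind of sample. KD and WT arrays that did not overlap and ran opposite ways in cardiomyocytes and hearts occurred in 1.02% of all genes and in none of the 9. Of 24 genes that supply or regulate fatty acid synthesis, 10 were higher and 14 lower in KD cardiomyocytes (median -0.02), and 11 higher and 13 lower in KD hearts (median -0.05). The smallest p in cardiomyocytes belonged to Thrsp, a promoter of lipid synthesis in liver and fat, at means of 7.22 ± 0.27 (KD) and 7.65 ± 0.38 (WT; SD, n = 3 each), KD minus WT being -0.43 (SE 0.22), which was -0.24 without WT replicate 1. In hearts it belonged to Pdk4, a kinase that shuts down pyruvate dehydrogenase, at means of 10.74 ± 0.44 (KD) and 11.48 ± 0.56 (WT; SD, n = 2 each), KD minus WT being -0.74 (SE 0.3). Pdk4 differed by -0.34 with WT heart 2 left out, by -0.43 with KD heart 1 left out and by -1.13 with WT heart 1 left out. Of the 24, 0 had a gap over 1 between the hearts numbered 1 and 2 in either genotype, and the median gap of the list was -0.08 in KD and 0.03 in WT. Members ran both ways, as these examples picked after values were seen show. Replicate 1 was the higher for Acss2, which makes acetyl-CoA from acetate, at 0.48 in KD and 0.54 in WT, Me1, malic enzyme, which makes NADPH, at 0.28 in KD and 0.42 in WT, and Slc25a1, the citrate carrier, at 0.2 in KD and 0.45 in WT. It was the lower for Pdk4, at -0.62 in KD and -0.79 in WT, and for Usf2, a transcription factor gene, at -0.49 in KD and -0.33 in WT.

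Of 16 elongase complex and other desaturase genes, 9 were higher and 7 lower in KD cardiomyocytes (median 0.03) and likewise in KD hearts (median 0.02, and -0.07 without KD replicate 1). Hacd1, a muscle dehydratase of the elongation cycle, was 10.8 ± 0 in KD hearts and 11.21 ± 0.1 in WT hearts (± SD, 2 arrays a group), a difference of -0.41 (SE 0.13; limma adjusted p 0.95), or -0.42 without KD replicate 1. Mitochondria have a separate fatty acid synthesis that supplies lipoic acid. Of its 7 measured genes 6 were higher in KD cardiomyocytes (median 0.17), among them Oxsm, the mitochondrial ketoacyl synthase, at 0.33 (SE 0.16; 0.2 without WT replicate 2). All 7 were lower in KD hearts (median -0.19), among them Cbr4, a ketoacyl reductase subunit, at -0.47 (SE 0.16; -0.27 without WT replicate 1) and Lias, lipoic acid synthetase, at -0.3 (SE 0.14; -0.24 without KD replicate 1). Without KD heart replicate 1, 5 of the 7 were lower (median -0.13). The 10 cardiomyocyte markers were all lower in KD hearts too, with a median of -0.14, and 8 of 10 without KD replicate 1. Their part in the mitochondrial genes was not tested.

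Genes of triglyceride synthesis and storage were lower in 12 of 19 in KD cardiomyocytes (median -0.03) and in 14 of 19 in KD hearts (median -0.13), and in 13 (median -0.15) without KD heart replicate 1. Gpam, the first enzyme of glycerolipid synthesis, was 9.93 ± 0.01 in KD hearts and 10.27 ± 0.08 in WT hearts (± SD, 2 arrays a group), a difference of -0.34 (SE 0.14; -0.33 without KD replicate 1), and Dgat2, which adds the last acyl chain, differed by -0.34 (SE 0.17; -0.26 without KD replicate 1). The adipocyte markers were lower in all 15 in KD hearts as well, with a median of -0.24 (Lipe is on both lists), or -0.2 and again all 15 without KD heart replicate 1. So were all 10 fibroblast markers (median -0.28) and all 10 endothelial markers (median -0.19), and 9 of each without KD heart replicate 1. What part these cell types had in the lower lipid genes was not tested. Sterol synthesis genes, targets of the related factor SREBP-2, were higher in 12 of 17 in KD cardiomyocytes (median 0.02) and in 9 of 17 in KD hearts (median 0.01, and -0.01 without KD replicate 1). Hsd17b7, an enzyme of cholesterol synthesis, differed by -0.48 (SE 0.21) in cardiomyocytes, and by -0.26 without WT replicate 2.

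Across the arrays Fasn, Acaca and Acly ran together. With each kind of sample centred on its own mean, Pearson's r over the 10 arrays was 0.98 between Fasn and Acaca, 0.95 between Fasn and Acly, 0.88 between Fasn and Elovl6 and 0.79 between Fasn and Scd1. These values rest on the 4 hearts: over the 6 cardiomyocyte arrays they were 0.83, -0.68, -0.12 and 0.07. Srebf1 and Fasn had an r of 0.37, and Scd4 and Fasn one of -0.02. Of 17105 genes compared, the 5 most like Fasn were Acaca (0.978), Sde2 (0.974), Esco1 (0.973), Zfp24 (0.969) and Wdr1 (0.961). Over the 6 cardiomyocyte arrays their r with Fasn was 0.83, 0.5, 0.28, 0.4 and 0.06. Esco1, a cohesin acetyltransferase gene, was 8.19 and 7.37 in KD hearts, against 8.44 and 7.49 in WT hearts. The 5 most like Scd1 were Slc30a7, St8sia4, Cmpk1, Ddx31 and Bbs9, at 0.96 to 0.914. Over the 6 cardiomyocyte arrays their r with Scd1 ran from 0.38 (Ddx31) to 0.87 (Slc30a7). The 5 most like Scd4 were Zfr (0.938), Phkb (0.922), Mlycd (0.914), Dpysl3 (0.906) and Oxsr1 (0.905), and over the 6 cardiomyocyte arrays their r lay between 0.88 and 1. Mlycd encodes malonyl-CoA decarboxylase, which removes the malonyl-CoA that Acaca makes. It was 8.64 ± 0.13 in KD cardiomyocytes and 8.84 ± 0.1 in WT cardiomyocytes (± SD, 3 arrays a group), and KD minus WT was -0.2 (SE 0.11; -0.13 without KD replicate 2). All these values describe arrays that share their normalization, and the genes were picked for the likeness.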

How the data were processed

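Per the labels, biotin-labelled cDNA of RNA pooled from 2 samples was hybridised to Affymetrix arrays. The deposited table holds log2 intensities for 35556 probe sets. Per the submitters' processing notes the tools were RMA and Partek, with version, setting and build not given in the sources used here. The method compresses differences of dim probes, and no detection calls were used. Names came from the platform annotation: 21789 probe sets had 1 gene symbol, 1621 several (not used) and 12146 none listed. Of 999 genes with several probe sets the brightest was kept, leaving 19938 genes; 0 symbols changed through Entrez identifiers, and 0 columns lacked a sample.

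All 10 arrays were fitted in limma 3.58.1 (R 4.3.3) with 4 group means and eBayes with an intensity trend (6 residual and 6.81 prior degrees of freedom). The two-sided p-values were adjusted by the Benjamini-Hochberg method across the 19938 genes, and the threshold was 0.05. The code was tested on simulated data.

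The 9 genes and the gene lists were chosen with earlier results of these data known, so lists are described by counts and medians. Named were the 9 genes, the genes of smallest p in each pathway list, the 5 genes most like Fasn, Scd1 and Scd4 by Pearson's r (gene models, olfactory and small RNA genes left out), and a few said to be picked after values were seen. Promoter sequences are those of RefSeq, build GRCm38.p6. Alternatives were other normalizations, probe set rules, filters, spread estimates, a replicate block, removal of a loess trend (span 0.3) and leaving out each array.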

Additional observations from a re-analysis of the deposited data

Results flagged for a closer look

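Lipt2, which encodes an octanoyl transferase of lipoic acid synthesis, ran opposite ways in the 2 kinds of sample. It was 8.11, 8 and 8.26 on the KD cardiomyocyte arrays, all above the WT values of 7.88, 7.99 and 7.8. In hearts it was 8.14 and 8.31 in KD, both below the WT values of 8.37 and 8.47. The KD effect in cardiomyocytes minus that in hearts was 0.42 (SE 0.17), and limma gave it an adjusted p of 0.999 (unadjusted 0.0272), so it did not pass. Such opposite, non-overlapping arrays occurred in 204 of 19938 genes (1.02%).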

How the results depend on the processing

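With 2 or 3 arrays a group, precision is limited by their number, and dim genes such as Scd3 (removed by the filter on dim genes) may be background. No gene passed between KD and WT cardiomyocytes under any alternative run. In hearts and in the difference between the KD effects, the counts of 0 genes were 0 to 303 and 0 to 237 with an array left out. The 303 and 237 came without KD heart replicate 2, leaving the thymocyte-rich heart. Without WT heart replicate 1 Bpifb1 and Scgb1a1 passed in both, and without KD heart replicate 1 Ms4a1 passed in hearts. An adjusted p of 0.1 in place of 0.05 gave 0 genes in all 3.

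Same-numbered arrays had deviations from their group means that correlated at 0.15, 0.13 and -0.05 in cardiomyocytes and 0.23 in hearts. Differently numbered arrays ran from -0.19 to 0.07 in cardiomyocytes. In hearts they were at -0.23, which having 2 hearts a genotype fixes in advance. These values cannot decide whether the numbers mark pairs, and the numbers are not taken as pairs. With the replicate number as a block, 1 gene (Clec1b) passed in hearts and 0 elsewhere; the block kept the size of every difference of the 9 genes but narrowed intervals in hearts, to -0.51 to 0.05 for Fasn and -0.61 to -0.05 for Acaca. In limma the unadjusted p was then 0.0275 for Acaca, 0.049 for Scd1 and 0.00634 for Scd4 in hearts, and the lowest adjusted p among them was 0.629 in hearts (Scd4) and 1 in cardiomyocytes. The labels do not say whether a number marks a shared day, litter or batch, so such a factor behind the split of the hearts was not tested.

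Of 438 values of the 9 genes under the alternatives, 393 kept direction and side of the threshold and 44 turned direction. The remaining value kept direction but not its side of the threshold. It was Scd2 in hearts without KD heart replicate 2, at 0.93, a fit that leaves the thymocyte-rich heart as the only KD heart. Turned values apart from left-out arrays were Scd3 in hearts at -0.02 (quantile normalization), -0.03 (median centring) and -0.03 (loess trend removed), the Scd4 difference between the KD effects at 0.14 (quantile) and that of Srebf1 at 0 (quantile and array weights). The cause was not tested. With the loess trend on intensity removed, some lower heart values kept direction but were smaller in size. They were -0.25 for Gpam, -0.22 for Dgat2, -0.31 for Hacd1, -0.44 for Cbr4, -0.23 for Lias and -0.63 for Pdk4. Scd4 in hearts was then -0.65. What part such a trend had in these differences was not tested. With an array left out, heart differences ran from -1.05 to 0.59 for Fasn, -0.92 to 0.27 for Acaca, -0.87 to 0.38 for Acly, -0.89 to 0.46 for Elovl6, -0.15 to 0.76 for Scd1, -0.07 to 0.93 for Scd2, -0.39 to 0.42 for Scd3, -0.73 to -0.5 for Scd4, 0 to 0.21 for Srebf1 and -0.03 to 0.28 for Srebf2. Cardiomyocyte differences ran from -0.08 to 0.08 for Acly, -0.25 to 0.02 for Elovl6, -0.06 to 0.01 for Fasn, -0.19 to 0.05 for Scd1, -0.04 to 0.2 for Scd2 and -0.88 to -0.41 for Scd4. The difference between the KD effects ran from -0.61 to 1.02 for Fasn, -0.38 to 0.81 for Acaca, -0.4 to 0.86 for Acly, -0.58 to 0.77 for Elovl6, -0.82 to 0.09 for Scd1, -0.82 to 0.17 for Scd2, -0.31 to 0.5 for Scd3, -0.26 to 0.2 for Scd4 and -0.09 to 0.15 for Srebf1. Pathway list medians in hearts without KD heart replicate 1 were added after seeing the data.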
